A study of Mus musculus with 9 samples.

Results

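The cytotoxic effector molecules described here are 10 genes: the granzymes Gzma, Gzmb, Gzmc, Gzmf and Gzmk, the pore-forming protein Prf1, the granule proteins Nkg7, Ctsw and Cst7, and the death ligand Fasl. They were taken by symbol from count tables that list 42454 gene names, and all 10 were found. All 10 were also among the 18243 names left by a filter on low counts. RNA came from 9 tumours of MC38, a mouse colon carcinoma line, taken from C57BL/6J mice 21 days after the cells were inoculated. The inoculated cells were Vec-MC38 in 4 tumours (Vec, with the genotype given as WT) and CD43-KO MC38 in 5 (CD43-KO). The knockout label thus applies to the inoculated line, and both groups had hosts of 1 strain, whose own cells keep the gene. The labels give no age, sex, batch or pairing, and do not say whether the knockout line was 1 clone.

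Cytotoxic T cells and natural killer cells kill by releasing granules against a target cell. Perforin, made from Prf1, opens the target membrane, and granzymes, which are serine proteases, enter and cleave proteins inside. Fas ligand is a separate route that engages the death receptor FAS on the target. In tumours these transcripts are used as gauges of cytotoxic lymphocytes, but a bulk tissue level cannot tell fewer cells of a type from less RNA per cell.

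Total counts were between 60751738 and 72114385 in Vec libraries and between 44814061 and 62194418 in CD43-KO libraries. Levels are given as CPM, a gene's count scaled to the total of its library after correction of that total by edgeR's TMM factors. Spn, which encodes CD43, was between 41.0 and 53.8 CPM in Vec and between 6.81 and 33.6 CPM in CD43-KO tumours, without overlap. Its log2 fold change was -0.93 ± 0.36 (SE; adjusted p = 0.280 by edgeR), so this label check rests on the order of the tumours and was not called. CD43-KO replicate 3 stood apart, with 6 skeletal muscle markers summing to 1014 CPM against 71.1 to 112 CPM in the other 8 tumours, and 5 fat markers summing to 364 CPM against 18.9 to 46.6 CPM. The epithelial keratin genes Krt8 and Krt18 were at or near 0 in every tumour, between 0 and 0.203 CPM. Krt19 was between 0.255 and 0.961 CPM and Epcam between 0.220 and 1.41 CPM. The other epithelial marker, Cdh1, was detected in every tumour, between 6.42 and 14.8 CPM. All 10 T cell markers and all 7 natural killer markers passed the filter on low counts.

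None of the 10 genes was called different between CD43-KO and Vec tumours, and their levels differed far more among CD43-KO tumours than among Vec tumours. All 10 had a higher mean level in CD43-KO tumours. CD43-KO replicate 3 had the highest level of all 9 tumours in 10 of 10 genes. CD43-KO replicate 1 lay above every Vec tumour in 10 of 10 and CD43-KO replicate 2 in 7 of 10. CD43-KO replicates 4 and 5 lay above every Vec tumour in none of the genes and below every Vec tumour in 6 genes each. The groups therefore overlapped in all 10.

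Differences were tested with edgeR (quasi-likelihood F test) over all 18243 names, with Benjamini-Hochberg adjustment. It called 0 of 10 genes at an adjusted p of 0.05, where 0% of all names were called higher and 0% lower. DESeq2 and limma voom with sample quality weights also called 0 of 10, beside 1.35% and 1.04% of all names called higher and 2% and 2.04% called lower. At an unadjusted edgeR p under 0.05, 3 of 10 genes were higher (Gzmk, Nkg7 and Fasl) beside 7.75% of all names, and 0 were lower beside 7.63%. Non-overlap between the groups was seen in 0 of 10 genes, against 2.08% of all names higher and 3.5% lower without overlap. The log2 fold change was above 0 in 10 of 10 genes, with a median of 0.85, against 54% of all names and a median of 0.03. The median was 0.41 without CD43-KO replicate 3, when 8 of 10 lay above 0. Over all 9 tumours 10 of 10 T cell, 7 of 7 natural killer and 6 of 6 macrophage markers also lay above 0. Their medians were 1.11, 1.31 and 0.65. So did 6 of 6 skeletal muscle markers (median 1.73), but only 3 of 5 neutrophil and 2 of 3 epithelial markers tested. The 10 genes vary together across the tumours, so they are not 10 separate observations.

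**Figure D1:**
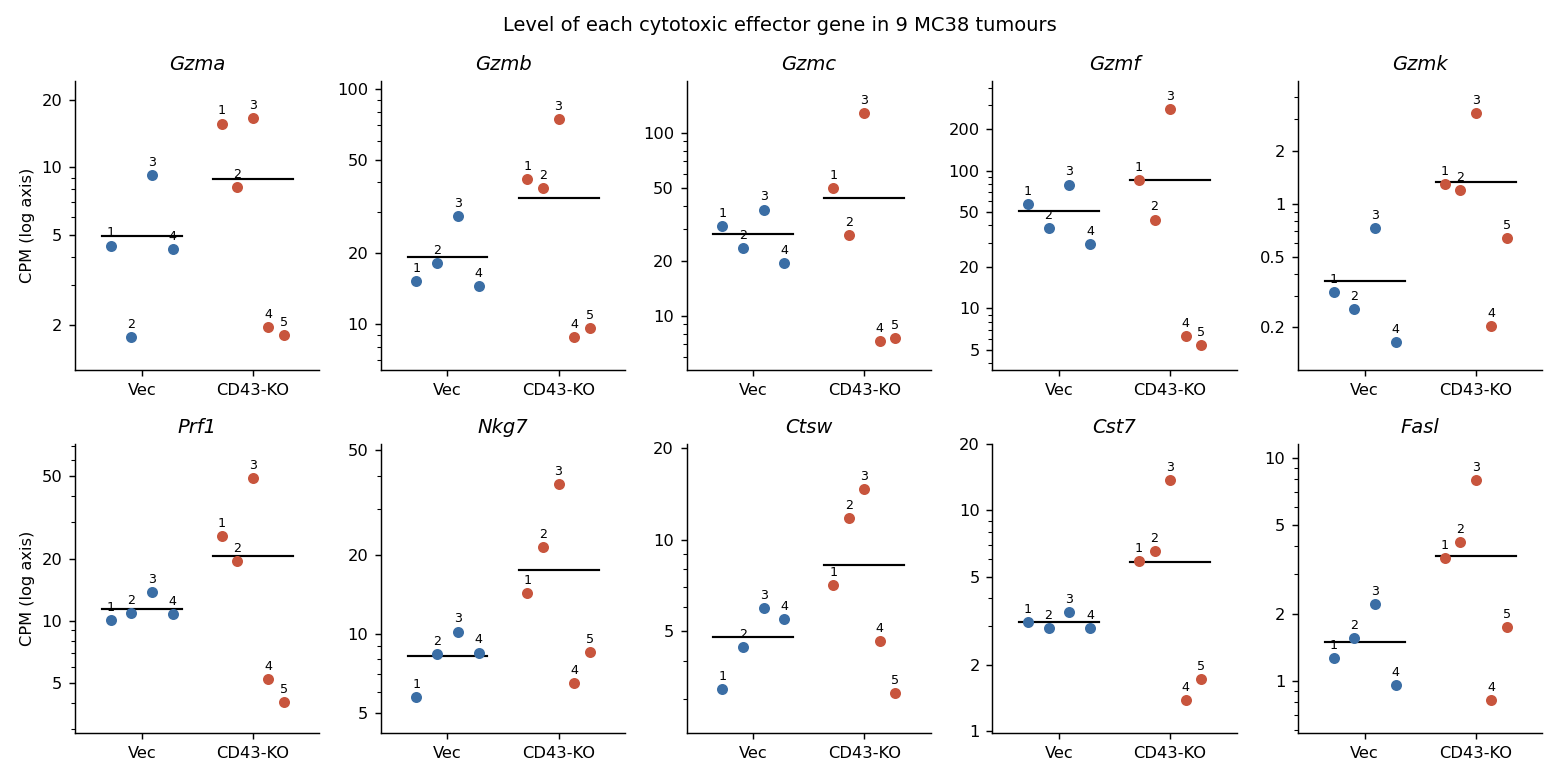
Level of each of the 10 genes in CPM (log axis) in 4 Vec and 5 CD43-KO tumours; points are tumours with their replicate number and lines are group means. CD43-KO replicate 3 is the highest point in all 10 panels, while CD43-KO replicates 4 and 5 lie within or below the Vec range, as for Gzmf at 6.33 and 5.41 CPM.

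Granzyme A is a trypsin-like protease of T cells and natural killer cells, and its gene, Gzma, lies on chromosome 13 (113093825 to 113100981, GRCm38, minus strand). Gzma was at 4.50, 1.76, 9.21 and 4.34 CPM in Vec replicates 1 to 4 and at 15.7, 8.16, 16.6, 1.96 and 1.81 CPM in CD43-KO replicates 1 to 5. CD43-KO replicates 1 and 3 were above every Vec tumour, replicate 2 was within their range, and replicates 4 and 5 were close to Vec replicate 2. The log2 fold change was 0.83 ± 0.72 (SE; edgeR adjusted p = 0.593). It was 0.47 without CD43-KO replicate 3, 0.52 without CD43-KO replicate 1, 0.55 without Vec replicate 2 and 1.31 without Vec replicate 3.

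Gzmk, on the same chromosome (113171608 to 113225908, minus strand), encodes a granzyme found in memory-like and exhausted CD8 T cells. It was the least abundant of the 10, with 9 to 141 counts per library. Its level was 0.316, 0.253, 0.732 and 0.166 CPM in Vec tumours and 1.299, 1.203, 3.27, 0.204 and 0.642 CPM in CD43-KO tumours. CD43-KO replicates 1 to 3 were above every Vec tumour and replicates 4 and 5 were within the Vec range. Its log2 fold change was the largest of the 10, at 1.83 ± 0.72 (SE), with an unadjusted edgeR p of 0.029 and an adjusted p of 0.285. Without CD43-KO replicate 3 it was 1.17 ± 0.61 (edgeR adjusted p = 0.321).

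Granzyme B cleaves caspases and BID in the target and is the granzyme most used as a marker of killing capacity. Gzmb lies at one end of a gene cluster on chromosome 14 (56258838 to 56262260, minus strand). Its level was 15.2, 18.2, 28.9 and 14.4 CPM in Vec tumours and 41.2, 38.0, 74.7, 8.84 and 9.57 CPM in CD43-KO tumours. No CD43-KO tumour lay within the Vec range: replicates 1 to 3 were above it and replicates 4 and 5 below it. The log2 fold change was 0.84 ± 0.60 (SE; edgeR adjusted p = 0.512), and 0.34 ± 0.56 without CD43-KO replicate 3.

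Gzmc and Gzmf encode granzymes of mouse lymphocytes that are induced on strong activation, and both lie in the same cluster as Gzmb. In genome order on the minus strand the cluster reads Gzmb, Gzmc (56231441 to 56234656), Gzmf (56205263 to 56211417), Gzmn, Gzmg, Gzmd and Gzme. Some of these genes share stretches of sequence. Of all 50-base words in GENCODE M21 transcripts of Gzmc, 4.14% also occur in transcripts of another gene, and 7.36% of those of Gzmf. For Gzmd, Gzme and Gzmg, which are not among the 10, the share was 21.9%, 20.6% and 19.8%. With 100-base words no word of Gzmc or Gzmf was shared, and the other 8 of the 10 genes shared none at either length. Levels within the cluster are uncertain, since how reads that fit more than 1 gene were counted is not given in the sources used here. The shares of words do not measure how large that uncertainty is. Gzmf also overlaps exons of Gm4022 on the opposite strand, which cannot be told apart from it without a stated strand setting.

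A likeness is also seen in the DNA upstream of Gzmc to Gzmg, shown here with that of Gzmb because these genes share the cluster. Whether it bears on their levels was not tested. Over 250 bases before the RefSeq start, Gzmc and Gzmf were 71.5% identical and Gzmd and Gzme 94.8%, while Gzmb was 50.2% identical to Gzmc and 52.2% to Gzmf. Each sequence below is 120 bases from RefSeq (GRCm38.p6, minus strand, 5′ to 3′) and ends 20 bases before the start that the RefSeq promoter table uses for the gene. RefSeq gene models can reach further: that of Gzmc spans 56231397 to 56241647, and that of Gzmd ends at 56132603. Capitals mark the letters of 3 motifs searched on both strands: TGACGTCA (the CRE, bound by the CREB and ATF family), TGANTCA (AP-1) and TGTGGT (RUNX).
Gzmb (chr14:56262355-56262474): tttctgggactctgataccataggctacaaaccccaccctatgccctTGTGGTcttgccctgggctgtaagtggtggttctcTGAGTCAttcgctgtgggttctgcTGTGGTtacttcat
Gzmc (chr14:56234678-56234797): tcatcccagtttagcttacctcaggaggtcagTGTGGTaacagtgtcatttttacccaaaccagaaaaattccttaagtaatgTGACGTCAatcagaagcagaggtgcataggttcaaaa
Gzmf (chr14:56211428-56211547): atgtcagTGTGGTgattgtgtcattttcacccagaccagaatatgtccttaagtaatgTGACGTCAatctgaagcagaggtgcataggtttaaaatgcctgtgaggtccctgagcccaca
Gzmd (chr14:56132614-56132733): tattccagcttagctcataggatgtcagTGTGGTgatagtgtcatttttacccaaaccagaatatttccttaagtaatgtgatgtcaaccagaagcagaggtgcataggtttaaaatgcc
Gzme (chr14:56120646-56120765): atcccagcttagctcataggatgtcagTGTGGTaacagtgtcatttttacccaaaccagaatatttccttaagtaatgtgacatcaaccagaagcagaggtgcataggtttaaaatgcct
Gzmg (chr14:56159600-56159719): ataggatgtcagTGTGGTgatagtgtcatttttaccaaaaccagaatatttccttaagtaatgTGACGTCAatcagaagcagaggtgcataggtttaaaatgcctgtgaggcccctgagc

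The RUNX letters were found upstream of all 6 genes, against 14.1% of 32851 promoters in the table searched over the same 250 bases. They were also found upstream of Gzma, Prf1, Nkg7 and Cst7, but not of Gzmk, Fasl or Cd8a. The sequences upstream of Gzmc to Gzmg are alike, so their matches are not separate. The CRE letters began 57 bases before the promoter table's start of Gzmc, 82 before that of Gzmf and 77 before that of Gzmg, and 1.55% of promoters hold them. The AP-1 letters were found in Gzmb alone of the 6, beginning 58 bases before its start, and 6.75% of promoters hold them. The letters of a further motif, AGGTGTGA (T-box, 1.12% of promoters), were found in Nkg7 alone of the 9 of the 10 genes that the promoter table holds. It lists no entry for Ctsw. The motifs share no matched letters with each other in these windows, and a match describes letters in the window.

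Gzmf was the most abundant of the 10 genes per kilobase of exon in Vec tumours, with a mean of 55.7 CPM per kb, ahead of Gzmc at 31.4 and Gzmb at 13.4 CPM per kb. Gzmf was at 57.6, 38.5, 79.4 and 29.2 CPM in Vec tumours and at 85.7, 44.2, 283, 6.33 and 5.41 CPM in CD43-KO tumours. Its range in CD43-KO tumours was 52.4-fold, against 2.72-fold in Vec tumours, with replicates 4 and 5 far below the Vec range and replicate 3 far above it. Gzmc was at 31.1, 23.4, 38.2 and 19.5 CPM in Vec tumours and at 50.05, 27.5, 128, 7.29 and 7.55 CPM in CD43-KO tumours, again with replicates 1 and 3 above every Vec tumour, replicate 2 within their range and replicates 4 and 5 below it.

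For Gzmc and Gzmf the direction of the difference depended on 1 tumour and on the scale. The edgeR log2 fold changes were 0.65 ± 0.78 and 0.73 ± 1.02 (SE; edgeR adjusted p = 0.702 and 0.747). Without CD43-KO replicate 3 they were -0.28 ± 0.64 and -0.53 ± 0.92. The difference between group means of log2 CPM, which gives less weight to 1 high tumour, was -0.12 for Gzmc and -0.54 for Gzmf, with two-sided exact permutation p of 0.921 and 0.714 over all splits of the tumours. With limma voom and sample quality weights, where CD43-KO replicate 3 had the lowest weight, they were -0.21 and -0.64. Summing the counts of Gzmc to Gzmg into 1 name, an alternative chosen after seeing the data, gave 0.68 ± 0.97 (edgeR adjusted p = 0.753), and -0.48 without that tumour.

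The genes from Gzmc to Gzmg made up most granzyme transcripts, and their share was lowest in the CD43-KO tumours with little granzyme RNA. The summed level of 9 granzyme genes was 227, 167, 309 and 125.97 CPM per kb in Vec tumours and 371, 201, 1034, 34.04 and 34.9 CPM per kb in CD43-KO tumours. Gzmc to Gzmg held 87.3% to 92.3% of it in Vec tumours, 87.6%, 81.7% and 93.1% in CD43-KO replicates 1 to 3, and 72.2% and 71.1% in replicates 4 and 5. Gzmb held 4.69% to 7.99% in Vec tumours and 18.1% and 19.1% in CD43-KO replicates 4 and 5. Since Gzmc to Gzmg are most of the sum, a low sum and a low share of these genes are not separate results. These ratios were picked after the values were seen and are given as description. Per kilobase, Gzmf stood 3.16 to 5.90 times above Gzmb within Vec tumours, and in CD43-KO replicates 1 to 5 the ratio was 3.25, 1.82, 5.93, 1.12 and 0.883.

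**Figure D2:**
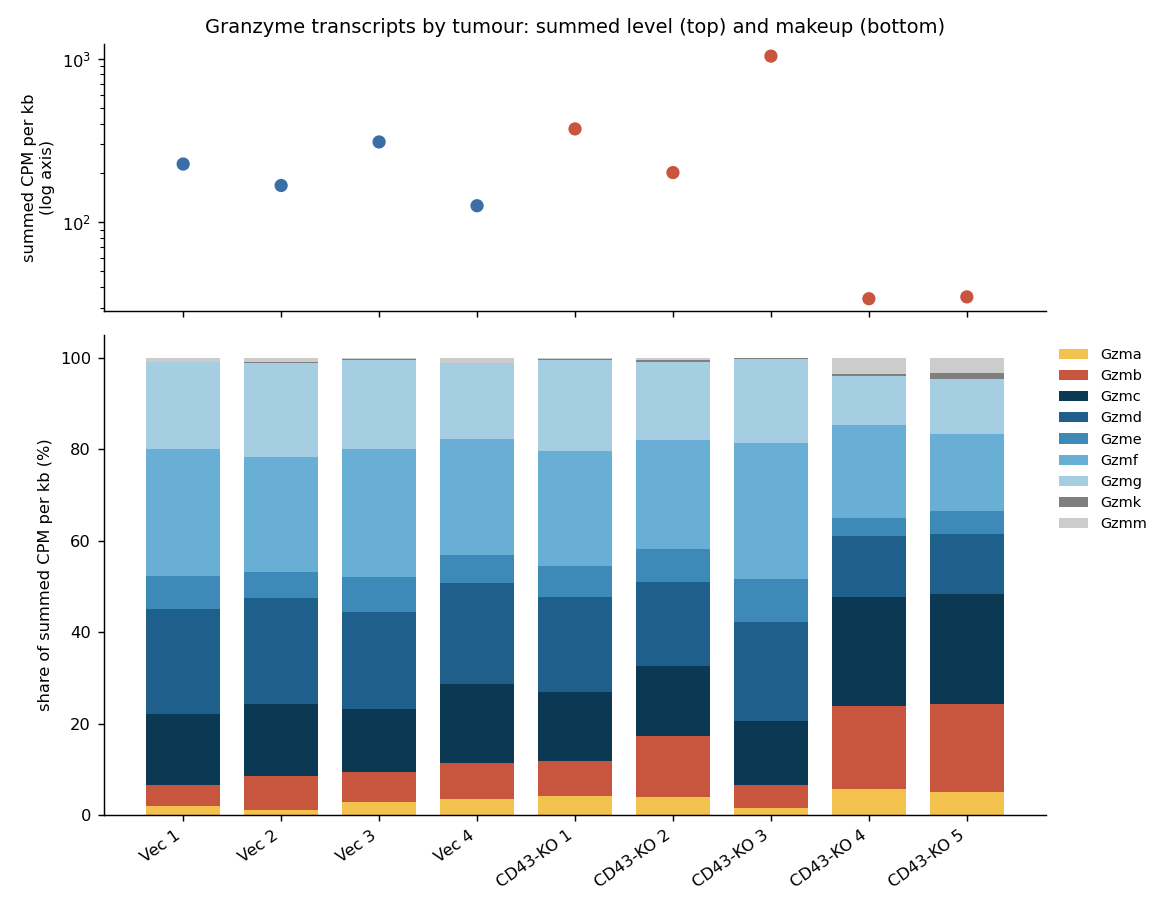
Top, summed level of 9 granzyme genes in CPM per kb of exon (log axis; blue Vec, red CD43-KO); bottom, the share of each gene in that sum in percent, 1 bar per tumour. CD43-KO replicates 4 and 5 have the lowest sums (34.04 and 34.9 CPM per kb) and the largest Gzmb shares (18.1% and 19.1%). Gzmc to Gzmg are most of each sum, so sum and shares are not separate results.

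Prf1, on chromosome 10 (61297833 to 61304680, plus strand), was at 10.04, 10.9, 13.8 and 10.8 CPM in Vec tumours. In CD43-KO tumours it was at 25.6, 19.4, 48.9, 5.23 and 4.06 CPM, so that again 3 tumours lay above and 2 below all Vec values. The spread was 1.38-fold in Vec and 12.1-fold in CD43-KO tumours. The log2 fold change was 0.86 ± 0.64 (SE; edgeR adjusted p = 0.530), and 0.25 ± 0.57 without CD43-KO replicate 3. On the mean of log2 CPM the difference was 0.30 (two-sided exact permutation p = 0.738), and -0.16 without that tumour.

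Nkg7 encodes a membrane protein of cytotoxic granules that takes part in their release, and lies on chromosome 7 (43437073 to 43438249, plus strand). Its level was 5.75, 8.34, 10.2 and 8.48 CPM in Vec tumours and 14.3, 21.3, 37.1, 6.49 and 8.52 CPM in CD43-KO tumours. Unlike Gzmb and Prf1, it was within the Vec range in CD43-KO replicates 4 and 5. The log2 fold change was 1.10 ± 0.47 (SE; unadjusted p = 0.0402, edgeR adjusted p = 0.306), and 0.62 ± 0.35 without CD43-KO replicate 3. As a description picked in the same way, the per-kilobase ratio of Nkg7 to Prf1 was 1.62 to 2.23 within Vec tumours and 1.58, 3.10, 2.15, 3.51 and 5.94 in CD43-KO replicates 1 to 5.

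Ctsw encodes cathepsin W, a cysteine protease of T cells and natural killer cells, and Cst7 encodes cystatin F, an inhibitor of the cathepsins that activate granzymes. Ctsw (chromosome 19, 5465043 to 5468507, minus strand) was at 3.24, 4.44, 5.96 and 5.47 CPM in Vec tumours and at 7.12, 11.8, 14.7, 4.65 and 3.13 CPM in CD43-KO tumours. It shares exon bases with Fibp on the opposite strand, so its level is uncertain. Cst7 (chromosome 2, 150570415 to 150578944, plus strand) was nearly constant in Vec tumours, at 3.11, 2.93, 3.46 and 2.94 CPM. In CD43-KO tumours it was at 5.93, 6.54, 13.7, 1.38 and 1.72 CPM, with replicates 4 and 5 below and the others above every Vec tumour. The log2 fold changes were 0.79 ± 0.42 for Ctsw and 0.91 ± 0.59 for Cst7 (SE; edgeR adjusted p = 0.387 and 0.466). Without CD43-KO replicate 3 they were 0.48 and 0.32, and the difference in mean log2 CPM of Cst7 was then -0.0050.

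Fasl, on chromosome 1 (161780689 to 161788495, minus strand), encodes the ligand of FAS. It was at 1.26, 1.55, 2.20 and 0.961 CPM in Vec tumours and at 3.53, 4.19, 7.92, 0.817 and 1.74 CPM in CD43-KO tumours. Replicates 1 to 3 of CD43-KO were above every Vec tumour, replicate 5 was within their range and replicate 4 just below it. The log2 fold change was 1.28 ± 0.56 (SE; unadjusted p = 0.0459, edgeR adjusted p = 0.318), and 0.78 ± 0.47 without CD43-KO replicate 3. The receptor gene Fas, named for its role, had a mean of 6.34 ± 1.19 CPM (SD) over 4 Vec and of 8.48 ± 3.56 CPM over 5 CD43-KO tumours.

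Two-sided exact permutation tests of mean log2 CPM gave p between 0.103 for Gzmk and 0.921 for Gzmc over the 10 genes, where the smallest p that the splits of 9 tumours allow is 0.00794. The edgeR adjusted p of the 10 lay between 0.285 and 0.747. The labels do not say that the tumours of a group are independent beyond coming from tumour-bearing mice. These p-values take each tumour as a separate observation. The tests also take the spread to be alike in the groups, while it was larger in CD43-KO tumours in 10 of 10 genes. The p-values and SE are limited by that as measures of a difference in means.

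**Figure D3:**
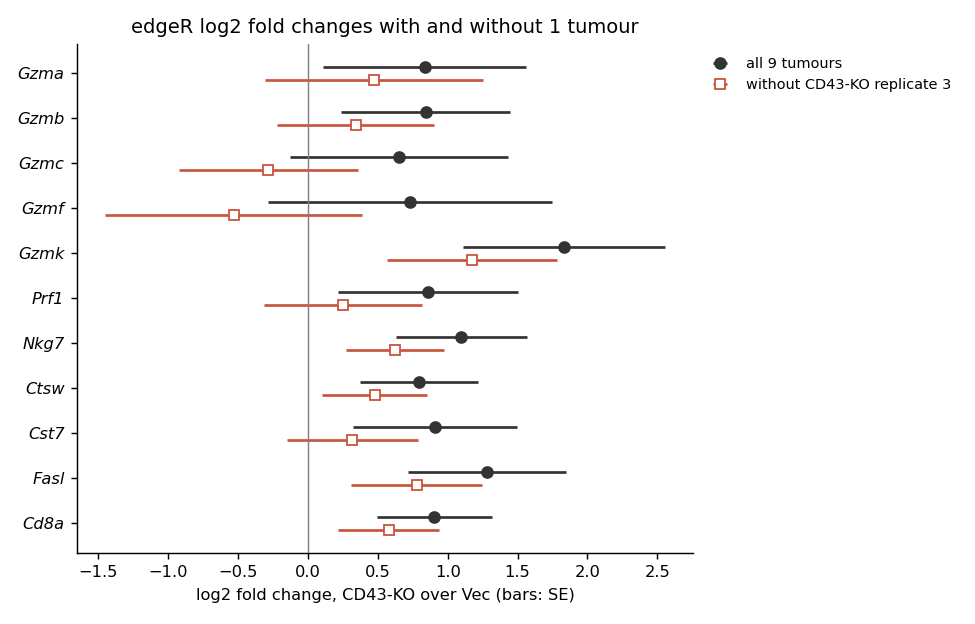
edgeR log2 fold changes of the 10 genes and Cd8a, CD43-KO over Vec, with SE bars, for all 9 tumours (filled circles) and without CD43-KO replicate 3 (open squares). All 11 circles lie above 0, and without that tumour Gzmc and Gzmf lie below 0, at -0.28 and -0.53.

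The spread among CD43-KO tumours was shared by the 10 genes. It was also seen in some other lymphocyte genes, though not in all, and in some genes of other cell types. The highest CD43-KO level over the lowest had a median of 9.83 over the 10 genes. It was 12.2 for Ccl5, 7.04 for Cd3d, 5.65 for Ncr1, 4.89 for Cd8a and 2.90 for Thy1, which are examples. The chemokine genes Ccl3, Ccl4 and Xcl1 had lower values than Ccl5, at 2.37, 3.71 and 3.61. For the transcription factor gene Eomes it was 1.40, and for Gzmm 1.51, below the 1.87 of Gzmm in Vec tumours. Outside lymphocytes it was 16.2 for the mast cell marker Mcpt4 and 5.60 for the macrophage marker Mrc1, but 1.24 for the dendritic cell marker Zbtb46. The SD of log2 CPM had a median of 0.44 in Vec and 1.39 in CD43-KO tumours over the 10 genes, against 0.24 and 0.27 over all names tested. It was larger in CD43-KO than in Vec tumours in 10 of 10 genes and in 57.4% of all names. It was smallest for Ctsw (0.92) and Nkg7 (1.01) and largest for Gzmf (2.45) in CD43-KO tumours.

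Within the set, 2 patterns of likeness could be seen across the 9 tumours, given here as description. The lowest Pearson correlation of log2 CPM among the 45 pairs was 0.62 (Gzmf with Gzmk) and the highest 0.99 (Gzmc with Gzmf), with a median of 0.86. All points share the same libraries, and without CD43-KO replicate 3 the lowest was 0.37. Among 12440 names of at least 1 CPM, those most like Gzmf were Gzmd, Gzme and Gzmg (r from 0.995 to 0.997), and those most like Gzmc were Gzme, Gzmf and Gzmg. The genes most like Gzmb were Tnfrsf13b, Prf1 and Gbp5, an interferon-induced guanylate-binding protein gene (r from 0.974 to 0.975). For Prf1 they were Gzmb, Cst7 and Gxylt2 (r from 0.959 to 0.974).

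The granule gene Nkg7 instead went with Cd247, a signalling chain of the T cell receptor, with the lymphotoxin gene Ltb and with Smpd5 (r from 0.990 to 0.993). Its correlation with Cd8a was 0.99, where that of Gzmf with Cd8a was 0.64. Without CD43-KO replicate 3 they were 0.98 and 0.41. Fasl went with the Y-linked helicase gene Ddx3y, the macrophage gene Mpeg1 and Ptprc, which encodes the pan-leukocyte protein CD45 (r = 0.989, 0.988 and 0.988). Ptprc itself was at 42.7, 50.6, 61.7 and 35.9 CPM in Vec and at 85.3, 108, 148, 37.1 and 64.5 CPM in CD43-KO tumours. For Gzma the closest were Uchl1, Msl3l2 and Chl1, for Gzmk P2ry14, Stk17b and Ppm1j, for Ctsw Nox4, Ptger4 and Tmem156, and for Cst7 Btk, Plekhf2 and Skap1, with r from 0.945 to 0.993.

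Levels relative to Cd8a ask whether effector transcripts differed beyond the CD8 T cell transcripts of the same tumour. The reference gene Cd8a encodes the alpha chain of CD8 and was at 7.99, 11.7, 12.3 and 10.5 CPM in Vec tumours and at 17.1, 27.9, 35.7, 7.31 and 11.4 CPM in CD43-KO tumours. Its own log2 fold change was 0.90 ± 0.41 (SE; adjusted p = 0.329 by edgeR). Natural killer cells also make most of these effectors and lack Cd8a for the most part, so the ratio is not a level per CD8 T cell. Relative to Cd8a, 7 of 10 genes were lower and 3 higher in CD43-KO tumours, with a median log2 difference of -0.23. Of all names 92.9% were lower relative to Cd8a, with a median of -0.68. The test was limma's moderated test over 18242 names. It called 0 of 10 genes at an adjusted p of 0.05, against 0.0219% of all names higher and 0.0877% lower, with adjusted p between 0.416 and 0.906 for the 10. Its SE borrows from the variance of all names and was 0.53 to 0.63 for the 10, although their own spread differed. The SD of the log2 ratio was 0.11 in Vec and 0.19 in CD43-KO tumours for Nkg7, and 0.69 and 1.70 for Gzmf. For Nkg7 and Gzmf the two-sided exact permutation p was 0.230 and 0.222. The groups did not separate in any of the 10, where 0.115% of all names were higher and 0.965% lower without overlap. At an unadjusted limma p under 0.05, 1 of 10 was lower, beside 8.69% of all names.

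That gene was Gzmf, at 7.21, 3.29, 6.45 and 2.77 times the Cd8a level in Vec tumours and at 5.01, 1.59, 7.93, 0.867 and 0.473 times in CD43-KO tumours. Replicates 2, 4 and 5 of CD43-KO were under the lowest Vec ratio and replicate 3 was over the highest. The log2 difference was -1.24 ± 0.53 (SE; unadjusted p = 0.0188, limma adjusted p = 0.416), with a two-sided exact permutation p of 0.222. It was -0.74 without CD43-KO replicate 5, and otherwise lay between -1.75 and -0.95 on leaving out 1 tumour. For Gzmc the difference was -0.81 ± 0.53 (limma adjusted p = 0.416), with CD43-KO replicates 2, 4 and 5 at 0.988, 0.998 and 0.660 times Cd8a against 1.85 to 3.90 in Vec tumours. It was -0.53 without CD43-KO replicate 5.

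Gzmb was at 1.91, 1.56, 2.35 and 1.37 times Cd8a in Vec tumours and at 2.41, 1.36, 2.09, 1.21 and 0.836 times in CD43-KO tumours, a log2 difference of -0.25 ± 0.53 (SE; limma adjusted p = 0.718). Prf1 was at 1.26, 0.929, 1.12 and 1.02 times Cd8a in Vec and at 1.4996, 0.697, 1.37, 0.716 and 0.355 times in CD43-KO tumours, a difference of -0.40 ± 0.53. Without CD43-KO replicate 5 these were -0.05 and -0.10, and without CD43-KO replicate 1 they were -0.43 and -0.61. For Gzmb the difference was -0.12 without Vec replicate 3. No CD43-KO ratio of Prf1 lay within the Vec range, with 2 above it and 3 below it. CD43-KO replicate 5 had the lowest ratio of all 9 tumours for Gzmb, Gzmc, Gzmf, Prf1, Ctsw and Cst7.

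Nkg7 and Fasl followed Cd8a more closely. The ratio of Nkg7 to Cd8a was 0.719, 0.713, 0.828 and 0.805 in Vec and 0.839, 0.765, 1.04, 0.888 and 0.744 in CD43-KO tumours, a 1.40-fold range in the latter against 16.8-fold for Gzmf. The log2 differences were 0.15 ± 0.53 for Nkg7, 0.26 ± 0.56 for Fasl and 0.77 ± 0.63 for Gzmk (SE; limma adjusted p = 0.836, 0.732 and 0.426). Those of Cst7, Gzma and Ctsw were -0.27, -0.20 and -0.09. The sign of Gzma turned to 0.10 without Vec replicate 3 and to 0.09 without CD43-KO replicate 5, and that of Ctsw to 0.06 without CD43-KO replicate 5. On leaving out 1 tumour Cst7 lay between -0.43 and -0.09, Nkg7 between 0.08 and 0.20, Fasl between 0.07 and 0.39 and Gzmk between 0.50 and 1.07. Without CD43-KO replicate 5 the median over the 10 genes was 0.0057. With the natural killer gene Ncr1 in place of Cd8a the median was -0.67, with 9 of 10 genes below 0. Ncr1 itself was 1.14 higher in mean log2 CPM in CD43-KO tumours, with 22 counts in its lowest library. A gene with an unchanged level thus falls below 0 on this reference, so these values do not show fewer effector transcripts.

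**Figure D4:**
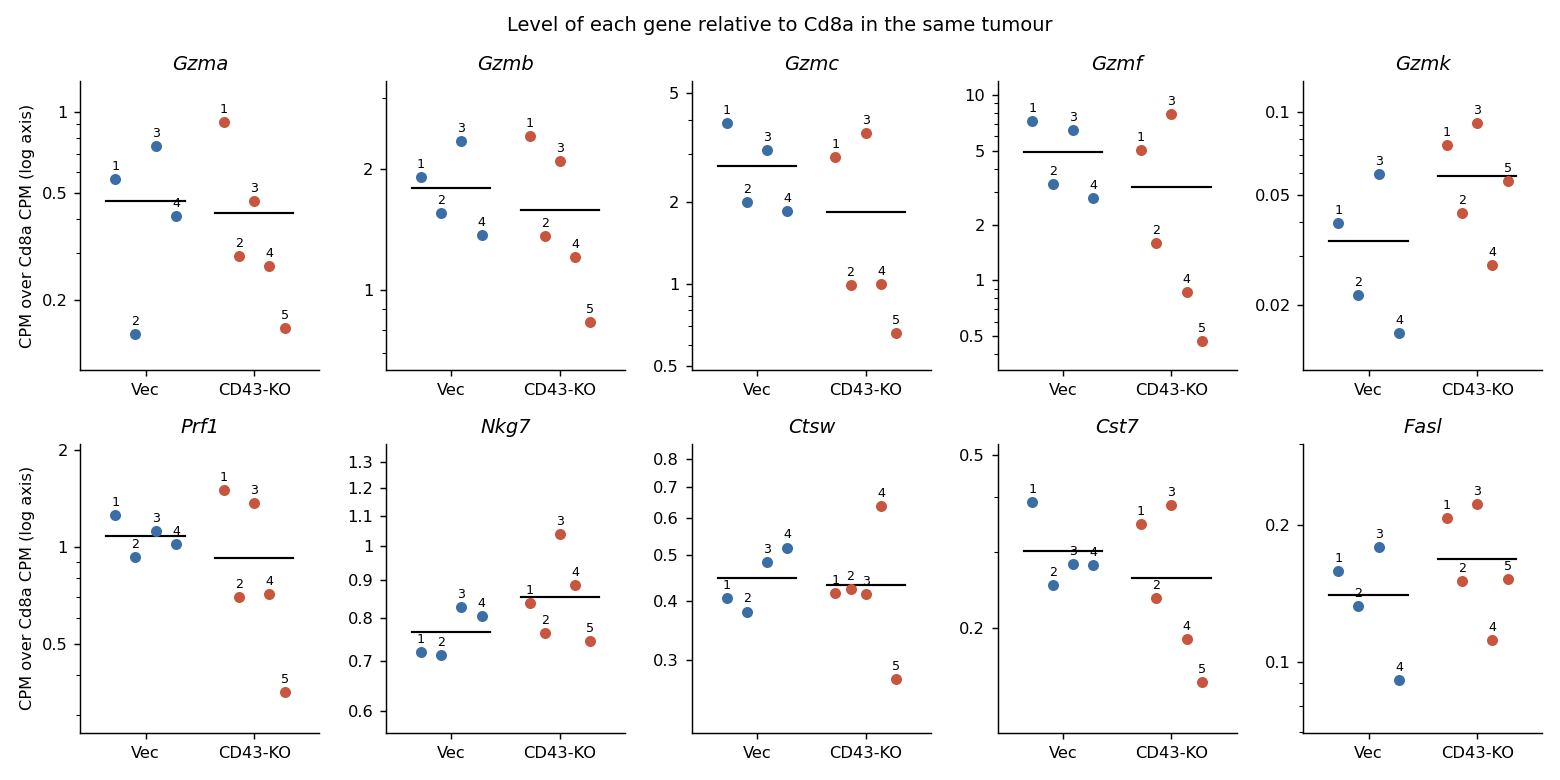
CPM of each gene divided by the CPM of Cd8a in the same tumour (log axis), 4 Vec and 5 CD43-KO tumours; points carry the replicate number and lines are group means. The ratio of Gzmf ranges from 0.473 to 7.93 in CD43-KO tumours, while that of Nkg7 stays between 0.744 and 1.04.

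Among the other granzyme genes, Gzmd, Gzme and Gzmg had the same high and low tumours as Gzmf. Of 5 listed genes 4 were tested, Gzmn being too low. Mean levels ± SD in the 4 Vec and then the 5 CD43-KO tumours were 44.4 ± 15.8 and 67.2 ± 88.8 CPM for Gzmd, and 36.002 ± 14.9 and 55.6 ± 70.5 CPM for Gzmg. Gzmm, which encodes a granzyme of innate lymphocytes and was singled out after its values were seen, had means of 2.44 ± 0.633 and 1.59 ± 0.282 CPM, with a log2 fold change of -0.62 ± 0.24 (SE; adjusted p = 0.278 by edgeR). It was the only one of the 4 with a log2 fold change below 0 over all 9 tumours, while 0 of 4 lay above 0 without CD43-KO replicate 3.

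Genes that act beside the effectors were also not called, in any of 6 further lists (edgeR, adjusted p of 0.05). That fit called 0% of all names higher and 0% lower, so it does not set these lists apart. Levels are given as means ± SD in the 4 Vec and then the 5 CD43-KO tumours. Of 6 genes of the granule matrix and granzyme activation, 4 had a log2 fold change above 0 (median 0.22). Ctsl and Lamp1 were the most abundant, Ctsl at 914 ± 95.7 and 971 ± 185 CPM and Lamp1 at 642 ± 34.8 and 631 ± 137 CPM. Ctsc, the protease that activates granzymes, was at 191 ± 41.4 and 349 ± 183 CPM and was chosen for its role after its values were seen. Gnptab, singled out after its values were seen, encodes a subunit of the enzyme that tags lysosomal proteins with mannose phosphate and was higher without overlap, at 30.8 to 45.3 CPM in Vec and 46.1 to 52.6 CPM in CD43-KO tumours. Its adjusted p by edgeR was 0.236, and 2.08% of all names were higher without overlap. Of 7 serpin genes that encode granzyme and related protease inhibitors, 5 lay above 0 (median 0.02). Serpinb6a was at 331 ± 49.3 and 286 ± 51.5 CPM and Serpina3g at 83.3 ± 12.9 and 102 ± 42.2 CPM.

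Of 3 tested death ligands and effector cytokines, all lay above 0 (median 0.90), with Tnfsf10, which encodes TRAIL, at 4.51 ± 0.793 and 8.39 ± 3.54 CPM and Ifng at 2.11 ± 0.9998 and 4.71 ± 3.92 CPM. The 7 genes of the Fas pathway had a median of 0.03, 4 of them above 0. Cflar, which encodes an inhibitor of caspase activation at FAS, was at 52.1 ± 7.15 and 63.0 ± 6.17 CPM. All 4 chemokine genes of cytotoxic cells lay above 0 (median 1.06), with Ccl5 at 16.4 ± 6.25 and 59.3 ± 57.0 CPM and Ccl4 at 5.15 ± 1.11 and 12.99 ± 7.70 CPM. Ccl4 alone of the 4 chemokine genes was higher without overlap, as 2.08% of all names were, between 4.04 and 6.52 CPM in Vec and between 7.13 and 26.4 CPM in CD43-KO tumours. Its log2 fold change was 1.33 ± 0.36 (SE; adjusted p = 0.196 by edgeR). Of 7 transcription factor genes, 6 lay above 0 (median 0.40), with Zeb2 at 84.4 ± 28.5 and 86.5 ± 16.2 CPM and Id2 at 37.9 ± 11.2 and 67.7 ± 44.5 CPM. Leaving out CD43-KO replicate 3 gave medians of 0.10 for the granule matrix, -0.04 for the inhibitors, 0.62 for the ligands and cytokines, -0.04 for the Fas pathway, 0.77 for the chemokines and 0.32 for the transcription factors.

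Markers of several cell types, though not of all, moved with the effectors over the tumours, and their part in the result was not tested. The summed level of 10 T cell markers was 71.5 to 97.5 CPM in Vec and 62.1 to 240 CPM in CD43-KO tumours, and that of 7 natural killer markers 25.4 to 46.04 and 26.5 to 148 CPM. In both lists the sums of CD43-KO replicates 1 to 3 exceeded those of all Vec tumours. A few abundant genes weigh most in these sums, which do not count cells. In CD43-KO replicate 3 Klrd1, Klrc1 and Klrk1 were at 52.5, 41.2 and 24.8 CPM and Ncr1 at 4.71 CPM. Thy1 was at 45.0 of the 71.5 CPM of T cell markers in Vec replicate 1. In CD43-KO replicate 4 the T cell sum was below every Vec tumour. In replicates 4 and 5, where Gzmf was 6.33 and 5.41 CPM, the natural killer sums of 26.5 and 34.4 CPM were within the Vec range. Mast cells and basophils can also hold granzyme transcripts. Their 7 markers summed to 6.41 to 16.1 CPM in Vec and to 8.63, 16.9, 27.5, 8.82 and 3.09 CPM in CD43-KO replicates 1 to 5. The 6 macrophage markers summed to 2283 to 4045 CPM in Vec and 2152 to 8868 CPM in CD43-KO tumours, with replicate 3 the highest. The 6 dendritic cell markers summed to 16.8 to 22.2 CPM in Vec and to 24.6, 32.6, 38.9, 19.2 and 22.9 CPM in CD43-KO tumours. The 5 B cell markers summed to 0.395 to 1.08 CPM in Vec and to 2.11, 2.98, 3.95, 1.40 and 1.06 CPM in CD43-KO tumours. The summed level of the 6 neutrophil markers did not follow the effectors, with 7.21 to 79.7 CPM in Vec and 88.1, 19.2, 43.4, 50.1 and 13.9 CPM in CD43-KO tumours. S100a8 and S100a9 held most of the highest sum, in CD43-KO replicate 1, at 41.5 and 36.2 CPM. The sum does not speak for each marker. Csf3r, named after its values were seen, was at 3.68 to 4.79 CPM in Vec tumours. In CD43-KO tumours it was at 9.23, 11.9, 21.6, 8.38 and 5.88 CPM.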

How the data were processed

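RNA of 9 tumours (4 Vec, 5 CD43-KO) was sequenced. The authors deposited whole-number counts per gene name for each library, not scaled to depth, per the file headers and values. Per the submitters' processing notes, the tools included StringTie 1.3.5, HISAT2 2.1.0 and DESeq2, and the build was GRCm38. How reads were counted, with which annotation and strand setting, is not given in the sources used here. The same 42454 names stood in each table, 26 of them turned into dates. No library pair agreed within sampling noise (lowest chi-square per degree of freedom 35.7).

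The software was edgeR 4.0.16, DESeq2 1.42.0 and limma 3.58.1, under R 4.3.3. Names were kept by filterByExpr (minimum count 10, minimum total 15), scaled by TMM and tested by edgeR's robust quasi-likelihood F test on the group, with Benjamini-Hochberg adjustment over all 18243 names. SE is the log2 fold change over the square root of F. Levels relative to Cd8a were tested by limma-trend on log2 CPM (prior count 2) minus that of Cd8a. Exact tests used all splits of the 9 tumours into groups of 4 and 5. The fits were run on simulated data with the same spread in both groups. The 10 genes do not have that, so the simulation does not show how the fits behave for them. Lengths are GENCODE M21 exon unions.

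The 10 genes and the lists were chosen with earlier results of these data known. The 10 genes and Cd8a are named throughout. From the pathway lists the 2 most abundant tested genes are named, except 1 gene that is not reported here, and others where the text gives the reason, and for likeness the 3 most correlated names, without predicted, clone-named or copy-suffixed names. Alternatives were other scalings, filters, tests, reference genes, prior counts and leaving out each tumour. Marker lists are mostly given as sums, apart from the epithelial markers, some medians and single markers named in the text. Replicates were numbered in accession order.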

Additional observations from a re-analysis of the deposited data

Results flagged for a closer look

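Gzmf in CD43-KO replicate 3 stood far from the rest of its group, at 283 CPM, where the other 4 CD43-KO tumours were between 5.41 and 85.7 CPM. Its gap to the nearest tumour was 0.711 of the group's range, just past Dixon's 95% critical value of 0.71 for 5 samples. It was 1 of 42 sets of values checked in this way (the 10 genes and Cd8a as CPM, and the 10 genes relative to Cd8a, in each group), and chance marks about 1 in 20. Relative to Cd8a the same tumour was at 7.93, against 5.01 in CD43-KO replicate 1.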

How the results depend on the processing

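No alternative called any of the 10 genes, in absolute level or relative to Cd8a. Over all names, edgeR called 0 and DESeq2 612, limma voom with quality weights 562 and the fit without a filter 1; leaving out 1 tumour gave 0 to 29 (29 without Vec replicate 3, 1 without Vec replicate 2 or CD43-KO replicate 2). Relative to Cd8a 20 names were called, 11 with Cd3d, Cd3e and Cd3g as reference, 109 with Ptprc, and 8 to 6550 on leaving out 1 tumour (98 without Vec replicate 2, 9 and 8 without Vec replicates 1 and 4; 10 without CD43-KO replicate 2, 6550 without replicate 4). The median of the 10 genes was 0.85, and 0.41 to 1.11 on leaving out 1 tumour; relative to Cd8a it was -0.23, and -0.41 to 0.0057 on leaving out 1 (above 0 without CD43-KO replicate 5). Leaving out 1 tumour moved Gzmc from -0.28 to 0.92 and Gzmf from -0.53 to 1.04 (below 0 without CD43-KO replicate 3), and voom gave -0.21 and -0.64. Relative to Cd8a, Gzma lay between -0.67 and 0.098 (above 0 without Vec replicate 3, and at 0.086 without CD43-KO replicate 5) and Ctsw between -0.24 and 0.062 (above 0 without CD43-KO replicate 5). With Ncr1 as reference, itself 1.14 higher in mean log2 CPM in CD43-KO tumours, the median was -0.67, Nkg7 was at -0.29 and Fasl at -0.18. Differences of mean log2 CPM lay between -0.71 and 0.33 for Gzmc (above 0 without Vec replicate 3 or CD43-KO replicate 4 or 5), -1.33 and 0.10 for Gzmf (above 0 without CD43-KO replicate 4 or 5), and, below 0 without CD43-KO replicate 3, -0.16 and 0.74 for Prf1 and -0.0050 and 0.82 for Cst7. The causes were not tested. Gzmk, with 9 counts in its lowest library, was left out by the filter of 1 CPM in 4 tumours. No paired analysis was possible because the labels number no replicates across the groups.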
